A study of Mus musculus with 3 samples.

Results

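The genes described are Smad1 to Smad7, the intracellular messengers of the TGF-beta and bone morphogenetic protein (BMP) pathways, and Id1, Id2 and Id3, 3 classical target genes of those messengers. They were chosen by symbol, and all 10 were found among the 25410 gene symbols of the files. RNA-seq was carried out on total RNA, depleted of ribosomal RNA, from IDG-SW3, a mouse osteocytic cell line that carries a conditional, interferon-inducible T antigen and was differentiated without interferon-gamma. The samples form 1 group of 3 biological replicates, all at day 35 of differentiation and all treated with 100 nM parathyroid hormone (PTH) for 24 h. The vehicle-treated cells of the study were not analysed here, so no effect of PTH was measured, and the comparisons are between genes of the same libraries. The totals were 35195518 counts in replicate 1, 37299517 in replicate 2 and 45240005 in replicate 3.

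TGF-beta and BMP ligands bind pairs of serine/threonine kinase receptors, which phosphorylate the receptor-regulated Smads. Smad1 and Smad5 carry the BMP signal and Smad2 and Smad3 the TGF-beta and activin signal. Each binds the common Smad, Smad4, and the complex enters the nucleus and regulates genes. The inhibitory Smads, Smad6 and Smad7, are themselves induced by the pathway and block it at the receptors. Id proteins have a helix-loop-helix domain but no basic DNA-binding region, so they hold E proteins and other helix-loop-helix factors off DNA. In bone, BMP signals promote osteoblast differentiation and Id1 is a standard readout of BMP activity. The receptor of PTH acts mainly through cyclic AMP.

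Levels are in RPKM, counts per kilobase of transcript and per 1000000 counts of the library, with the median length of a gene's annotated transcripts, and each mean has its SD over the 3 libraries (n = 3). Of the 10 genes, 9 had levels above 1 RPKM by edgeR's quasi-likelihood test with Benjamini-Hochberg adjustment, where 43.2% of the 21011 genes tested were above and 13.4% below. The share below depended on the tool and the libraries, with 2815 genes here, 268 with DESeq2, 9887 with limma at a pseudocount of 1 RPKM, 1223 without replicate 1 and 910 without replicate 2. Smad5 was unresolved, and 0 of the 10 were called below 1 RPKM. At an unadjusted p under 0.05 the number below was also 0, as it was with DESeq2, whereas limma called 1, Smad5. Unresolved means an adjusted p of 0.05 or more, and not a level near 1 RPKM. Genes with almost no counts, such as Smad5, can stay unresolved, so 0 called below does not show that none lay below. For 7 of the 9 genes above, Smad1, Smad2, Smad3, Smad4, Smad6, Smad7 and Id2, the edgeR adjusted p was at most 2.83e-73, and at most 3.90e-12 where only genes with a mean count of 10 or more were fitted. The median level of the 10 genes was 11.3 RPKM, against 0.497 RPKM over all 23047 genes with a length. All 10 had counts above 0, and 9 had a mean count of 10 or more.

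**Figure D1:**
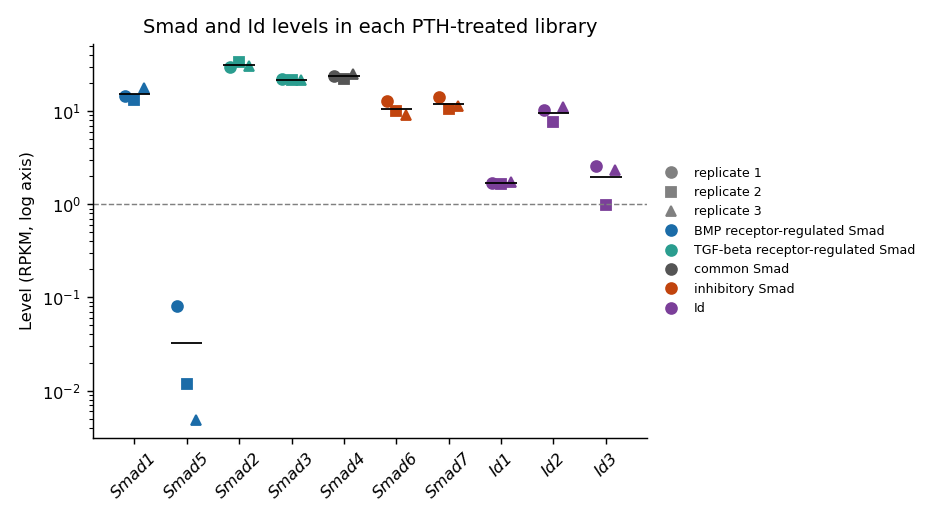
Level of each Smad and Id gene in RPKM on a log axis, with 1 symbol per library, the mean as a bar, colours for the gene classes and a dashed line at 1 RPKM. Smad2, Smad3 and Smad4 lie highest between 21.5 and 33.8 RPKM, Id1 and Id3 lie near the line, and Smad5 lies far below it.

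The receptor-regulated Smads of the TGF-beta branch were both expressed at high levels. Smad2 had 2122, 2553 and 2791 counts in replicates 1, 2 and 3, which gave 29.7, 33.8 and 30.4 RPKM and a mean of 31.3 ± 2.15 RPKM. Smad3 had 3928, 4074 and 5024 counts, the most of the 10 genes, and levels of 21.9, 21.5 and 21.8 RPKM. Its mean was 21.7 ± 0.245 RPKM, so its libraries were nearly identical once scaled. Smad2 was above Smad3 in 3 of 3 libraries, by 0.44, 0.65 and 0.48 on the log2 scale (0.52 ± 0.11), but this order depends on length. The annotated transcripts of Smad2 run over 1305 to 8089 bases, and with the longest of them its level was 7.85 RPKM and the log2 ratio to Smad3 was -1.47. The single annotated length of Smad3, 5090 bases, leaves its level the same at 21.7 RPKM. With a correction for GC content the log2 ratio was 0.05.

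On the BMP branch, reads were listed almost wholly for Smad1. Smad1 had 1763, 1700 and 2760 counts and levels of 14.6, 13.3 and 17.8 RPKM, with a mean of 15.2 ± 2.31 RPKM and replicate 3 the highest. Smad5, which shares its role, had 13, 2 and 1 counts, or 0.0808, 0.0117 and 0.00484 RPKM, so replicate 1 held most of what there was. The pooled 16 counts have an exact 95% Poisson interval of 9.15 to 26.0 counts, for counting error only. The edgeR test left Smad5 unresolved against 1 RPKM (log2 level -4.92, adjusted p = 0.101), with adjusted p-values of 7.29e-09 to 0.294 over 10 alternatives and 2 calls below, both by limma. Smad9, the remaining BMP receptor-regulated Smad, had 116, 28 and 122 counts and a level of 0.419 ± 0.248 RPKM. The edgeR test called it below 1 RPKM (adjusted p = 0.00184). Smad5 lay lower than Smad9 with fewer counts, so its missing call does not place it nearer to 1 RPKM.

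The low value of Smad5 stands beside a property of the files. Smad5 is listed in 3 rows of the same symbol, whereas the other 9 genes have 1 row each. In replicate 1 all 13 counts were in the second row, and in replicates 2 and 3 the 2 counts and the 1 count were in the third. Symbols with 3 rows had a median level of 0.0747 RPKM (n = 658), and 54.0% of them lay under 0.1 RPKM. Symbols with 1 row had a median of 0.694 RPKM (n = 19752), and 18.3% lay under 0.1 RPKM. The share listed at 0 was 30.2% with 3 rows and 5.04% with 1 row. The part of this in the value of Smad5 was not tested, and no fold against Smad5 is given. Symbols with 1 row are therefore also given as their own background, in which 45.4% of those tested were called above 1 RPKM.

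**Figure D2:**
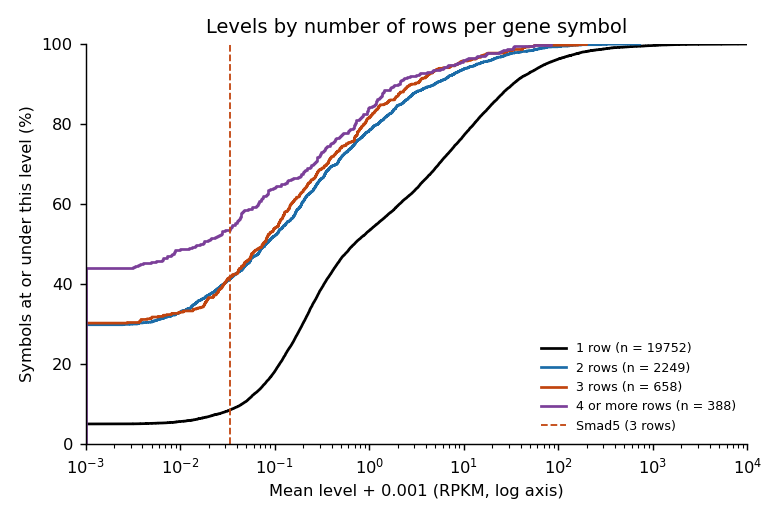
Cumulative share of gene symbols, in percent, at or under each mean level (RPKM + 0.001, log axis), for symbols listed in 1, 2, 3, or 4 or more rows. The curves for several rows lie above the curve for 1 row, and the dashed line marks Smad5 at 0.0325 RPKM among symbols with 3 rows.

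Smad4, the partner that all receptor-regulated Smads share, had 2337, 2309 and 3186 counts. Its levels were 23.6, 22.0 and 25.1 RPKM, with a mean of 23.6 ± 1.52 RPKM, and stayed between 19.6 RPKM with the longest and 29.7 RPKM with the shortest transcript. Smad4 lay above Smad3 in 3 of 3 libraries, by 0.11, 0.04 and 0.20 on the log2 scale, but this order turned with the longest transcripts (19.6 RPKM for Smad4, against 21.7 for Smad3) and with the GC correction (19.6 against 22.4). Against the summed level of Smad1, Smad2, Smad3 and Smad5, which was 68.3 ± 1.85 RPKM, Smad4 alone was 2.90-fold lower (log2 ratio -1.53 ± 0.09). That sets a single gene against a sum of 4. Taken singly with median lengths, only Smad2 of the 4 had a higher mean than Smad4, 31.3 RPKM. The ratio to the sum was -1.49, -1.64 and -1.48 in the 3 libraries, which differed little, but -1.15 with the longest transcripts.

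The inhibitory Smads were expressed at similar levels. Smad6, which acts mainly on BMP signals, had 725, 603 and 661 counts and levels of 12.7, 9.97 and 9.01 RPKM (10.6 ± 1.92 RPKM). Smad7, which acts on both branches, had 950, 736 and 964 counts and levels of 14.3, 10.5 and 11.3 RPKM (12.0 ± 2.03 RPKM). For both genes replicate 1 was the highest library, and the ranges of the genes overlapped. Within each library Smad7 was the higher, by 0.18, 0.07 and 0.33 on the log2 scale (0.19 ± 0.13), but the direction turned with the longest (-0.12) or the shortest transcripts (-1.09) and with the GC correction (-0.13). Their annotated lengths span 273 to 2971 bases for Smad6 and 769 to 4278 bases for Smad7, and Smad6 has the highest GC content of the 10 genes at 64.3%.

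The summed level of the inhibitory Smads was 22.6 ± 3.84 RPKM, against 68.3 ± 1.85 RPKM for the receptor-regulated Smads. The log2 ratio was -1.29 in replicate 1, -1.74 in replicate 2 and -1.78 in replicate 3 (-1.61 ± 0.27), or 3.05-fold lower. This sets 2 genes against 4, so the unequal numbers of genes enter the ratio and it does not compare levels per gene. The direction was lost with the shortest transcripts, where the ratio was 0.07, and the GC correction brought it to -0.73. The BMP pair, Smad1 and Smad5, summed to 15.2 ± 2.30 RPKM, against 53.0 ± 1.91 RPKM for the TGF-beta pair, Smad2 and Smad3. That log2 ratio was -1.82, -2.06 and -1.56 (-1.81 ± 0.25), or 3.51-fold lower, and it was -1.10 with the longest transcripts. Since nearly all of the BMP sum came from Smad1, the uncertain value of Smad5 enters this ratio. That value also enters the sum of the receptor-regulated Smads, the sum of Smad1 to Smad7, and the ratios and shares built on these sums. For each of the class ratios the exact two-sided sign-flip permutation test gave p = 0.25, the smallest p that 3 libraries allow, so none can pass 0.05.

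**Figure D3:**
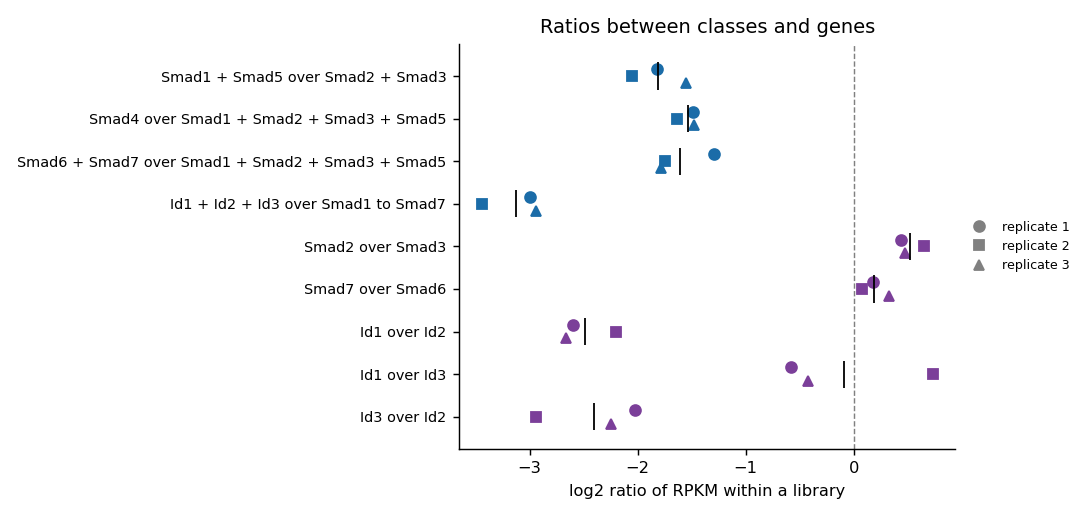
Log2 ratios of RPKM within each library, with 1 symbol per replicate, the mean as a bar and a dashed line at equal levels, for 4 class ratios (blue) and 5 pairs of genes (purple), with median transcript lengths. The class ratios lie at -1.29 or lower in all 3 libraries, but that of Smad6 and Smad7 reversed to 0.07 with the shortest transcripts. Most class ratios set unequal numbers of genes against each other. Smad2 over Smad3 and Smad7 over Smad6 lie above 0 but turn with the length chosen. Id1 over Id3 falls on both sides of 0.

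Of the summed Smad level, 114 ± 3.12 RPKM, Smad2 made up 27.4 ± 2.66%, Smad4 20.6 ± 0.993% and Smad3 19.0 ± 0.307%. Smad1 followed with 13.3 ± 1.85%, Smad7 with 10.5 ± 1.53% and Smad6 with 9.21 ± 1.54%. Smad5 made up 0.0279 ± 0.0358%. With the longest transcripts Smad3 led with 29.4% and Smad2 made up 10.6%, and with the shortest Smad6 led with 29.9%. The order among the Smads is thus a property of the lengths used as well as of the counts.

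**Figure D4:**
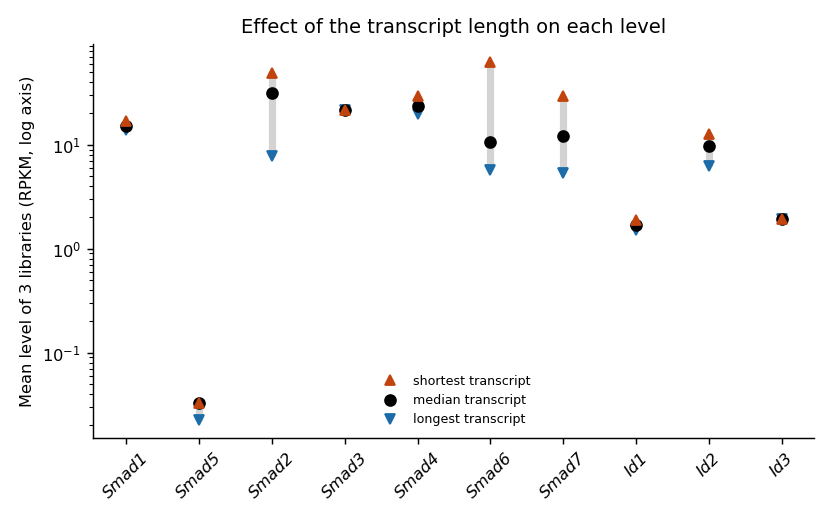
Mean level of each gene over 3 libraries, in RPKM on a log axis, computed with its shortest, median and longest annotated transcript, with a grey bar over the range. Smad6 spans 5.76 to 62.7 RPKM, Smad2 7.85 to 48.6 and Smad7 5.30 to 29.5, whereas Smad3 and Id3, with 1 annotated transcript each, do not move.

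The Id genes lay lower than most Smads and were led by Id2. Id2 had 464, 358 and 632 counts and levels of 10.4, 7.56 and 11.0 RPKM (9.65 ± 1.84 RPKM), with replicate 2 the lowest. Its range overlapped that of Smad6, and it was below Smad6 in 2 of 3 libraries. That order turned with the longest transcripts, with 6.22 RPKM for Id2 against 5.76 for Smad6, and with the shortest they had 12.8 against 62.7 RPKM. Id2 made up 72.7 ± 1.70% of the summed level of the 3 Id genes, with 70.9, 74.2 and 73.1% in the libraries.

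Id1, the usual readout of BMP signalling, had 63, 64 and 82 counts and levels of 1.71, 1.64 and 1.73 RPKM. Its mean of 1.69 ± 0.0483 RPKM was called above 1 RPKM only narrowly (log2 level 0.75, edgeR adjusted p = 0.0454). Over 12 alternatives the adjusted p was 0.00501 to 0.547, and 7 kept the call. It was lost without replicate 1, 2 or 3 (edgeR adjusted p = 0.140, 0.131 and 0.0794), with the longest transcript (0.105) and with DESeq2 (0.547).

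Id3 had 115, 47 and 134 counts and levels of 2.56, 0.986 and 2.32 RPKM, so replicate 2 stood apart at under 1 RPKM. Its mean of 1.95 ± 0.846 RPKM was called above 1 RPKM (log2 level 0.96, edgeR adjusted p = 0.00111), and over 12 alternatives the adjusted p was 6.34e-05 to 0.465, with 10 keeping the call. It was lost without replicate 1 (edgeR adjusted p = 0.112) and with DESeq2 (0.465). Id4, the remaining Id gene, had 126, 163 and 90 counts and 0.861 ± 0.315 RPKM, and was unresolved (edgeR adjusted p = 0.441).

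Id1 was lower than Id2 in 3 of 3 libraries, with log2 ratios of -2.60, -2.21 and -2.67, or 5.62-fold on average (-2.49 ± 0.25). Id3 was 5.29-fold lower than Id2 (-2.40 ± 0.48), again in 3 of 3 libraries. Both ratios kept their direction with every length, with a pseudocount of 1 RPKM and with the GC correction, where they were -1.73 for Id1 and -1.56 for Id3. Id1 and Id3 could not be ordered, since Id1 was lower in replicates 1 and 3 and higher in replicate 2 (log2 ratio -0.09 ± 0.72, exact sign-flip permutation p = 1). The summed level of the 3 Id genes was 13.3 ± 2.70 RPKM, against 114 ± 3.12 RPKM for Smad1 to Smad7. The log2 ratio was -3.13 ± 0.28 and lay between -3.45 and -2.94 in all libraries. Fewer Id genes than Smads were summed, so the unequal numbers of genes enter this ratio. In bulk RNA, fewer cells expressing a gene and less RNA per cell cannot be told apart.

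In the order of mean levels, Smad2 was followed by Smad4, Smad3, Smad1, Smad7, Smad6, Id2, Id3, Id1 and Smad5. Of the 9 neighbouring pairs in that order, 4 overlapped in their library ranges, namely Smad1 with Smad7, Smad7 with Smad6, Smad6 with Id2, and Id3 with Id1. Over all 45 pairs, 40 did not overlap, and no such share over pairs of other genes was computed. That separation covers the spread between libraries and not the choice of length. With the longest transcripts Smad3 ranked 1, Smad4 ranked 2, Smad1 ranked 3, Smad2 ranked 4, Id2 ranked 5, Smad6 ranked 6 and Smad7 ranked 7. By mean level, Id3 ranked 8, Id1 ranked 9 and Smad5 ranked 10 with any of the 3 lengths. The order of Id3 and Id1 is not stable, since the mean log2 ratio of Id1 to Id3 turned to 0.075 with the shortest transcripts. Among all 23047 genes, Smad2 stood at percentile 90.7, Id2 at 79.2, Id3 at 63.1 and Id1 at 61.7.

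The coefficient of variation between libraries does not depend on the length chosen. The SD on the log2(RPKM + 0.1) scale and its percentile among genes at like levels can move with it, and median lengths were used here. On the log2(RPKM + 0.1) scale the SD of Smad3 was 0.016, lower than that of all but 1.16% of the 2753 genes with 1 row and a level within 2-fold. Its coefficient of variation was 1.13%, against a counting error of 1.53%. Id1 was likewise close between libraries, with a coefficient of variation of 2.85% against a counting error of 12.1%. An SD from 3 libraries is imprecise, and neither spread was tested against counting error, so neither can be placed below it. Smad2 and Smad4 lay at percentiles 36.7 and 31.3 of genes at like levels. Among the 9 genes with 1 row the most variable was Id3, with an SD of 0.71 (percentile 90.8 of 2572 genes) and a coefficient of variation of 43.3%, against a counting error of 11.2%. Smad5, with its 13, 2 and 1 counts, had a larger coefficient of variation, 129%, against a counting error of 72.5%, and an SD of 0.43 on the log2 scale, where the pseudocount outweighs its levels. Id2, Smad6, Smad7 and Smad1 lay at percentiles 84.9, 80.6, 78.7 and 77.2, with coefficients of variation of 15.2 to 19.0%. The highest library was replicate 1 for Smad3, Smad5, Smad6, Smad7 and Id3, replicate 2 for Smad2, and replicate 3 for Smad1, Smad4, Id1 and Id2, so no library was high for the whole set.

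**Figure D5:**
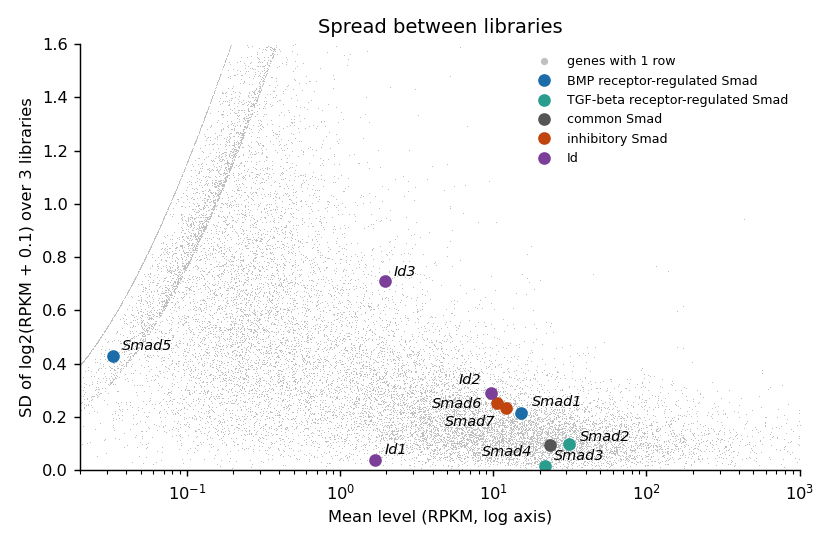
SD of log2(RPKM + 0.1) over the 3 libraries against mean level in RPKM (log axis), for genes with 1 row in grey and the Smad and Id genes in the colours of their classes, with the vertical axis ending at 1.6. Smad3 and Id1 lie at the bottom with SDs of 0.016 and 0.039, and Id3 lies highest of the 10 on this scale with 0.71.

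Promoter windows of 300 bases from RefSeq (build GRCm38.p6), from 250 before to 50 after the gene start, were used for 6 of the 10 genes. Among the 10 genes, windows on 1 chromosome were left out, whereas the background windows were not filtered. No window of Id1, Smad2, Smad4 or Smad7 was searched. The windows used were treated as follows. They were searched on both strands for TGACGTCA, the cyclic AMP response element, for its core TGACG, for the Smad-binding palindrome GTCTAGAC and for GGCGCC, a GC-rich motif bound by BMP Smads. TGACG lies within TGACGTCA. Of all 32851 windows, 1.79% held TGACGTCA, 20.8% TGACG, 0.213% GTCTAGAC and 11.9% GGCGCC. None of the 6 genes had TGACGTCA. The 6 genes have 8 windows, and a gene was counted if any of its windows matched, whereas the shares above are per window. TGACG was found for Id3, Smad1 and Smad5, and GGCGCC for Id2 and Smad5. GTCTAGAC was found for Smad6, whose match begins 4 bases before the gene start. The windows of Smad6, Id2 and Id3 are shown because these genes are known pathway targets and each holds 1 of the motifs, in capitals. They lie at chr9:64022010-64022309 (minus strand), chr12:25096043-25096342 (minus strand) and chr4:136143572-136143871 (plus strand). The matches are a description of letters, and no binding was measured.
Smad6: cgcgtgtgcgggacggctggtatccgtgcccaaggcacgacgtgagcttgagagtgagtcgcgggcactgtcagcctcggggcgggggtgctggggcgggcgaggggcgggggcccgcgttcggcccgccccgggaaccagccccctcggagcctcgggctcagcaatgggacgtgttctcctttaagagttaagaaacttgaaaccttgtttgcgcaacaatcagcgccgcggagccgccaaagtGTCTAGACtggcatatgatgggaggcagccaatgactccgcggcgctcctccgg
Id2: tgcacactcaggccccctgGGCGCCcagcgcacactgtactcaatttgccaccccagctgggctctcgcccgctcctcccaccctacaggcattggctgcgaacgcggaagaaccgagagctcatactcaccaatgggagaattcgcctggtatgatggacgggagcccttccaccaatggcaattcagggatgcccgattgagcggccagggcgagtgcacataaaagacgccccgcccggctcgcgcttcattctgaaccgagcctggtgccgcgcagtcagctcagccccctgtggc
Id3: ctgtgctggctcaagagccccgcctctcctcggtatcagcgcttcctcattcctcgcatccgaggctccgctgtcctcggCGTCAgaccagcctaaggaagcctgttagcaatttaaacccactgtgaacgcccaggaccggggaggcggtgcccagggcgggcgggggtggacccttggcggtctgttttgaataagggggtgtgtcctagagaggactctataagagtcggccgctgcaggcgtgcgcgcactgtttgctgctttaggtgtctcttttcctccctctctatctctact

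Genes around the Smads in the pathway were set against the same threshold and background, 43.2% above and 13.4% below 1 RPKM over all genes tested. Genes listed at 0 are counted in each list but not in that background, which holds only genes with a count. Of 21 partners and regulators of Smads, 15 were above 1 RPKM, 2 below and 2 unresolved, and 2 were listed at 0. The median was 5.80 RPKM, against 0.497 RPKM over all genes. The highest with 1 row were Zeb2, a Smad-binding repressor, at 55.9 ± 4.80 RPKM, the ubiquitin ligase Stub1 at 54.0 ± 1.91 RPKM and Smurf2, a ubiquitin ligase that targets Smads and receptors, at 46.9 ± 1.06 RPKM. Smurf1, a related ligase that acts on BMP Smads, and Trim33 were listed at 0 in all libraries, and each has 2 rows. The genes below were Smad9, with 1 row, and Nedd4l, with 2 rows and 2, 43 and 5 counts in the 3 libraries.

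Receptors and ligands of both branches were present. The shares above 1 RPKM were 60.0% of the receptor list, 58.8% of the ligand list and 75.0% of the antagonist list. Over all genes tested, which leave out genes listed at 0, 43.2% were above and 13.4% below. Of 15 receptors and related genes, 9 were above 1 RPKM and 1, which has 3 rows, was below. A further 4 were unresolved, some of them with several rows, and 1 was listed at 0. The median was 2.48 RPKM. The TGF-beta type I receptor Tgfbr1 stood at 222 ± 4.54 RPKM, the BMP type I receptor Bmpr1a at 68.2 ± 7.74 RPKM and the coreceptor Tgfbr3 at 28.9 ± 6.83 RPKM. Tgfbr2, the partner of Tgfbr1, was the gene listed at 0 and has 2 rows. Of 17 genes in the ligand list, 10 were above, 1 below and 6 unresolved, with a median of 2.73 RPKM. The list includes Bmp1, which encodes a metalloprotease and not a ligand. Bmp1 has 2 rows, was among those above and had the median level. Tgfb3 led at 55.3 ± 2.77 RPKM, before the activin subunit gene Inhbb at 33.7 ± 2.14 RPKM and Tgfb2 at 32.6 ± 5.95 RPKM. Among 12 antagonists 9 were above, 1 below and 2 unresolved, with a median of 9.87 RPKM. Fstl1 was the highest of them at 1093 ± 63.8 RPKM, and Twsg1 and the activin-binding Fst followed at 52.3 ± 9.20 and 40.5 ± 4.86 RPKM.

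Other target genes of the pathways showed levels on both sides of those of the Id genes. Of 19 in the list, 12 (63.2%) were above 1 RPKM, 1 below and 6 unresolved, with a median of 2.48 RPKM. Some of the 19 are also in the partner, receptor, helix-loop-helix or osteoblast marker lists, so the list shares are not independent. The shares over all genes tested were 43.2% above and 13.4% below. Col1a1, a chain of type I collagen, stood at 488 ± 42.5 RPKM and the smooth muscle actin gene Acta2 at 57.1 ± 5.31 RPKM. The 6 unresolved genes were Id4, Atoh8, Hey1, Msx1, Dlx5 and Runx2, of which Dlx5 has 2 rows and Runx2 has 3. Of 18 genes for Id partners and other helix-loop-helix factors, 6 (33.3%) were above 1 RPKM and 2 were below. That share counts genes listed at 0, which the share over all genes tested leaves out, so they are not on the same basis. Of the rest 8 were unresolved and 2 had no counts, and the median was 0.247 RPKM. Bhlhe40 stood at 72.6 ± 2.39 RPKM, Twist1, a repressor of osteoblast differentiation, at 38.2 ± 2.54 RPKM and the E protein gene Tcf12 at 17.4 ± 1.37 RPKM. The E protein gene Tcf4 (2 rows) stood at 3.69 ± 0.723 RPKM. Tcf3, another E protein gene, was listed at 0 and has 8 rows. Across all 13 lists, 10 of the 11 genes listed at 0 have several rows, against 24 of the 154 list genes in the files.

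The osteocytic label was checked against marker genes. Of 11 osteoblast and osteocyte markers 7 were above 1 RPKM and 4 unresolved, with Sparc at 6409 ± 408 RPKM, Col1a2 at 2946 ± 90.4 RPKM and Ibsp at 2052 ± 415 RPKM. Of the osteocyte markers, Pdpn (156 ± 27.6 RPKM) and Phex (9.05 ± 0.940 RPKM) were above 1 RPKM. Dmp1 (0.652 ± 0.547 RPKM), Mepe (0.436 ± 0.216 RPKM), Fgf23 (0.266 ± 0.0816 RPKM) and Sost (2, 0 and 0 counts) were the 4 unresolved. Id1 and Id3 are also abundant in endothelium, whose 10 markers summed to 4.13, 3.91 and 4.21 RPKM, with 1 above 1 RPKM (Kdr), 2 below, 5 unresolved, and Pecam1 and Emcn listed at 0 with 2 rows each. The summed levels of the other marker lists ranged over 13.4 to 15.0 RPKM for macrophages and osteoclasts, 12.9 to 19.0 for adipocytes, 49.1 to 67.9 for chondrocytes, 4.79 to 7.81 for muscle and 0.994 to 1.23 for epithelium. The numbers above 1 RPKM were 1 of 10, 3 of 7, 3 of 7, 1 of 7 and 0 of 6 in those lists by edgeR, where 43.2% of all genes tested were above. Genes listed at 0 are counted in the lists and left out of that share. Most of the macrophage sum came from Lyz2 (12.9 ± 1.10 RPKM) and most of the chondrocyte sum from Comp (49.9 ± 10.9 RPKM), and the medians of these lists were 0.128 and 0.687 RPKM. The part of such cells in the Smad and Id levels was not tested.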

How the data were processed

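The values the authors deposited, whole numbers in 30795 transcript rows per library, were used as raw counts. The file names call them RPKM, but in replicate 1 the values times transcript length in kilobases summed to 111222086, where RPKM allow about 1000000. Every level rests on this reading. TopHat and build mm9 were used per the submitters' processing notes; the counting tool, with its treatment of strand and of rows of the same symbol, is not given in the sources used here. Libraries were strand-preserving per the labels' protocols. Rows of a symbol were summed. Lengths and GC content came from the basic transcripts of GENCODE M21 (GRCm38) for 23047 symbols, matched by symbol or RefSeq synonym. These held 96.5, 96.4 and 96.4% of the counts.

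Each level was tested two-sided against 1 RPKM over all 21011 genes with a count, with edgeR 4.0.16 (R 4.3.3) quasi-likelihood F tests with trended dispersion, robust estimation and a Poisson bound, and a threshold of 0.05 after Benjamini-Hochberg adjustment. This was tested on simulated data. Alternatives used DESeq2 1.42.0, limma 3.58.1, other lengths, the largest row, TMM scaling, a mean count of 10, a pseudocount of 0.1 or 1 RPKM, a loess correction for GC content and leaving out each library. Class ratios were computed within libraries without a pseudocount. The Poisson interval covers counting error only, because PCR reads that carry no molecular identifier need not be separate molecules.

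The genes and the 13 gene lists were chosen with earlier results of these data known. All 10 Smad and Id genes are named, and of each list up to 3 genes with 1 row and the highest mean, except 1 gene that is not reported here. Bmp1, Smad9, Id4, Nedd4l, Tcf4, Pdpn, Phex, Dmp1, Mepe, Fgf23 and Sost were named after their values were seen. So were the genes listed at 0 and the unresolved target genes. The promoter motifs were chosen with the sequences in view.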

Additional observations from a re-analysis of the deposited data

How the results depend on the processing

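The number of genes called above 1 RPKM was 9084 and lay between 7472 and 9348 under every alternative run. The number below, 2815, depended on the tool: it was 268 with DESeq2, 9854 with limma at a pseudocount of 0.1 RPKM and 9887 at 1 RPKM, and it was 910 to 2564 with a library left out (1223 without replicate 1, 910 without replicate 2). Of the 10 Smad and Id genes, 7 to 9 were called above, and the number below was 0 except with limma, which gave 1 at either pseudocount. Over 118 repeats of single levels, 109 kept their call, 7 lost it (Id1 and Id3) and 2 gained it (Smad5, with limma). The log2 ratio of Smad1 and Smad5 to Smad2 and Smad3 moved to -1.10 with the longest and -2.07 with the shortest transcripts, and that of Smad4 to the receptor-regulated Smads to -1.15 with the longest. The ratio of Smad6 and Smad7 to the receptor-regulated Smads moved to -1.99 with the longest transcripts, and to -0.73 after the GC correction, and it reversed to 0.066 with the shortest, in which Smad6 is only 273 bases long. That of the Id genes to the Smads was -3.67 with the shortest. Among single pairs, Smad2 over Smad3 reversed to -1.47 with the longest transcripts. Smad7 over Smad6 reversed to -0.12 with the longest, -1.09 with the shortest and -0.13 with the GC correction. Id1 over Id3 reversed to 0.075 with the shortest, and with a library left out it was -0.50 to 0.16. With any library left out the class ratios stayed within 1 SD, at -1.94 to -1.69, -1.56 to -1.48, -1.76 to -1.52 and -3.22 to -2.97 in the order given. Library scaling cancels within these ratios. Smad1 over Smad5 gave no value for the largest row, which was at 0 in replicates 2 and 3. The 1-row alternative was chosen after seeing the data. No paired analysis was possible because the samples form 1 group. The counts were lowest for Smad5, Id1 and Id3, with 1 to 134 per library, and counting error was 72.5, 12.1 and 11.2% of their levels.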
